A study of Mus musculus with 2 samples.

Results

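The lysosome and cathepsin genes were a list of 40 genes, all of them found among the 32285 genes of the features files. The list held 8 cysteine proteases (cathepsins B, C, H, K, L, S and Z, and legumain), 3 other proteases, 6 glycosidases, 7 enzymes or carriers that handle lipids, 5 membrane proteins, 3 regulators or channels, and 8 subunits or accessory proteins of the vacuolar proton pump (V-ATPase). They were measured by single-cell RNA-seq in CD11b+ and CD11c+ cells sorted from the colorectal polyps of C57BL6/J mice. Tumors had been induced with azoxymethane (AOM), a carcinogen, followed by 1% dextran sodium sulfate (DSS), a colitis-inducing salt, in 3 cycles, and the labels give a time of 16 weeks and an age of 26 weeks. One library came from WT mice and 1 from Clec7a-/- mice, which lack the gene for the receptor Dectin-1. Both groups received AOM and DSS, and the cells of several mice were pooled into each library. Clec7a was not analysed here.

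With 1 library per genotype there was no replicate and no test. Differences are given with exact 95% intervals that cover counting error only, since neither differences between mice nor between library preparations could be measured. A gene is described as past the threshold when its level differed by 1.5-fold or more, and the share of all genes past it is given beside the counts of each comparison. The cells kept numbered 2696 in the WT and 1999 in the Clec7a-/- library, with 12283285 and 7559096 unique molecular identifiers (UMIs, each standing for 1 captured transcript) and medians of 3412.5 and 2671 UMIs per cell. The 2 libraries shared 17 barcodes, 6 of them among the cells kept. Of the UMIs kept, 394689 WT and 205552 Clec7a-/- UMIs belonged to the lysosomal genes. Because the kit tagged transcripts at the 3′ end, levels in CPM, the scaled share of a class's UMIs that a gene takes, do not scale with transcript length, and the levels of different genes were compared as captured transcripts.

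Lysosomes are acidic organelles in which material taken up from outside or from the cell itself is broken down. The V-ATPase pumps protons into them, cathepsins cut proteins, glycosidases and lipases degrade sugars and lipids, and LAMP proteins line the membrane. Macrophages use them to dispose of engulfed material, dendritic cells (DCs) to prepare antigen, and the granules of neutrophils share some of their proteins. The transcription factor TFEB raises the expression of many lysosomal genes by binding a short motif in their promoters, which has CACGTG at its core.

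RefSeq promoter windows (GRCm38.p6, 250 bases before to 50 after the annotated start) were found for 33 of the 40 genes, some with more than 1 start. There was none for Ctsb, Ctsh, Npc1, Asah1, Atp6v0d2, Atp6v1b2 and Atp6v1h. The letters CACGTG, which read the same on both strands, stood in a window of 10 of the 33 genes (30.3%), against 8.09% of the 27025 genes with a window. The longer TCACGTGA, which is also its own reverse complement and contains CACGTG, stood in 6 of the 33 (18.2%), against 1.12% of those genes. These 6 were Atp6v0d1, Atp6v1a, Ctsa, Ctsd, Gla and Mcoln1, and the 4 with the short letters alone were Ctsl, Gaa, Lamp1 and Lgmn. The windows below are shown because Gla, Ctsd and Atp6v0d1 were among the few lysosomal genes with their highest level in neutrophil-like cells, Ctsa had copies of the motif on both sides of its start, and Lamp1 had the most copies. Each window surrounds a RefSeq start, is written 5′ to 3′ along the gene, and has CACGTG, or TCACGTGA where the longer form is present, in capitals.
Gla (chrX:134600956-134601255, reverse strand): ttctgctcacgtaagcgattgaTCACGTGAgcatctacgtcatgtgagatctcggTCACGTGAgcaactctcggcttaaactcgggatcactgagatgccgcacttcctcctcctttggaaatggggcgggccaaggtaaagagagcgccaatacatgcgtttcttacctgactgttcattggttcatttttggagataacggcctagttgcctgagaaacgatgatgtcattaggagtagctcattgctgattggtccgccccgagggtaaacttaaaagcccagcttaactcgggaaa
Ctsd (chr7:142387778-142388077, reverse strand): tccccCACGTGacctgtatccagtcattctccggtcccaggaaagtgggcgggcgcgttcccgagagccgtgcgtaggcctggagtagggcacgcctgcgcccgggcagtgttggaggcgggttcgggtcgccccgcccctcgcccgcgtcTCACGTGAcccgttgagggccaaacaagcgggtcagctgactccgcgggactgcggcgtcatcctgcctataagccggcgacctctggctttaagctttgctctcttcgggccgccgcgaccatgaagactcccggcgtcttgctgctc
Atp6v0d1 (chr8:105566015-105566314, reverse strand): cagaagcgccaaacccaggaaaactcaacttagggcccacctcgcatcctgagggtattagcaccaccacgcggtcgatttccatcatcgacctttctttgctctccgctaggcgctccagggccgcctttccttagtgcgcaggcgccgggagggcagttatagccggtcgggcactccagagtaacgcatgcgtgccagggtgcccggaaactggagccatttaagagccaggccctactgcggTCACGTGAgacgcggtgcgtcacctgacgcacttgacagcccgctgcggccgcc
Ctsa (chr2:164833523-164833822, forward strand): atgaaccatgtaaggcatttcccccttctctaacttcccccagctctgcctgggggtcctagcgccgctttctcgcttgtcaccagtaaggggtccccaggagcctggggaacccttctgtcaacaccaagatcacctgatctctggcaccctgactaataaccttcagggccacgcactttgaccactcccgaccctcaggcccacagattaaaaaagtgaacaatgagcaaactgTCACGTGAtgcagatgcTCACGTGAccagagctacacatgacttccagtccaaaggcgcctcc
Lamp1 (chr8:13158911-13159210, forward strand): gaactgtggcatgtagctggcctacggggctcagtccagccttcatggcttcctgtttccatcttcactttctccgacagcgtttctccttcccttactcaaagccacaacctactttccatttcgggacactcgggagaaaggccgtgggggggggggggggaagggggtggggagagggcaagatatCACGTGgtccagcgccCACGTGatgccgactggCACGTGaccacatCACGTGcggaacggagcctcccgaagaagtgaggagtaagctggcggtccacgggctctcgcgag
Positions are those of the first base of CACGTG, counted from the start. In Gla the longer form lay 227 and 194 bases before the start, and in Ctsd it lay 98 bases before the start with a further CACGTG at 245. In Atp6v0d1 it lay 3 bases before the start. Ctsa had it 12 bases before and 6 bases after the start, and Lamp1 had 4 copies of CACGTG, at 61, 45, 28 and 15 bases before the start. The windows of Ctsl and Atp6v1a, and the Lgmn window with CACGTG, lay inside the gene as GENCODE draws it. The Lgmn window at the start of the GENCODE gene held no CACGTG. The Ctsa window shown also begins inside its gene, and the other RefSeq window of Ctsa held no CACGTG. Nor did any window of Lamp2, Tfeb and Atp6v0c, the other genes with their highest level in neutrophil-like cells. A match of letters is a description of the window and does not show that a factor binds there.

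Cells were clustered without the lysosomal genes, and 16 clusters were obtained. Classes were named from marker genes, none of which was a lysosomal gene of the list. Cluster 1 was neutrophil-like, clusters 0 and 4 monocyte-like, clusters 6 and 7 macrophage-like, clusters 2, 8 and 10 DC-like and cluster 9 T-cell-like. Cluster 0 carried all 7 monocyte markers and 2 of 4 markers of the transition from monocyte to macrophage. Cluster 4 carried 1 of 7 monocyte markers (Fn1) and all 4 transitional ones (Ccl24, Mmp19, Sdc1 and Inhba). The monocyte-like class thus also held cells with transitional markers. Clusters 3 and 5 stayed unnamed. Cluster 3 carried 7 of 10 neutrophil markers but had medians of only 1130 and 910 UMIs per cell, and cluster 5 carried 8 of 10 neutrophil and 4 of 7 monocyte markers. Clusters 11 and 14 also stayed unnamed.

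Macrophage-like cells had the highest summed level of the 40 genes, which took 4.92% of their UMIs in the WT library (95% interval 4.90 to 4.94) and 4.89% in the Clec7a-/- library (4.86 to 4.92). Monocyte-like cells followed with 2.85% and 2.87%, neutrophil-like cells with 2.22% and 2.69%, DC-like cells with 1.25% and 1.25%, and T-cell-like cells with 0.721% and 0.683%. The order was the same in both libraries, and the intervals of neighbouring classes did not overlap. The summed level of macrophage-like cells was 1.73 and 1.70 times that of monocyte-like cells, 2.22 and 1.82 times that of neutrophil-like cells, 3.94 and 3.92 times that of DC-like cells, and 6.82 and 7.16 times that of T-cell-like cells, in the WT and the Clec7a-/- library respectively. Per-cell values spread widely inside each class. In macrophage-like cells the median share was 4.93% in the WT library (quartiles 4.17% and 5.61%) and 4.80% in the Clec7a-/- library (4.06% and 5.47%), so that the lower quartile of macrophage-like cells lay above the upper quartile of monocyte-like cells (3.33% and 3.42%). Macrophage-like cells made up 19.5% and 14.6% of the cells kept but carried 52.9% and 47.1% of all UMIs of the lysosomal genes.

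**Figure D1:**
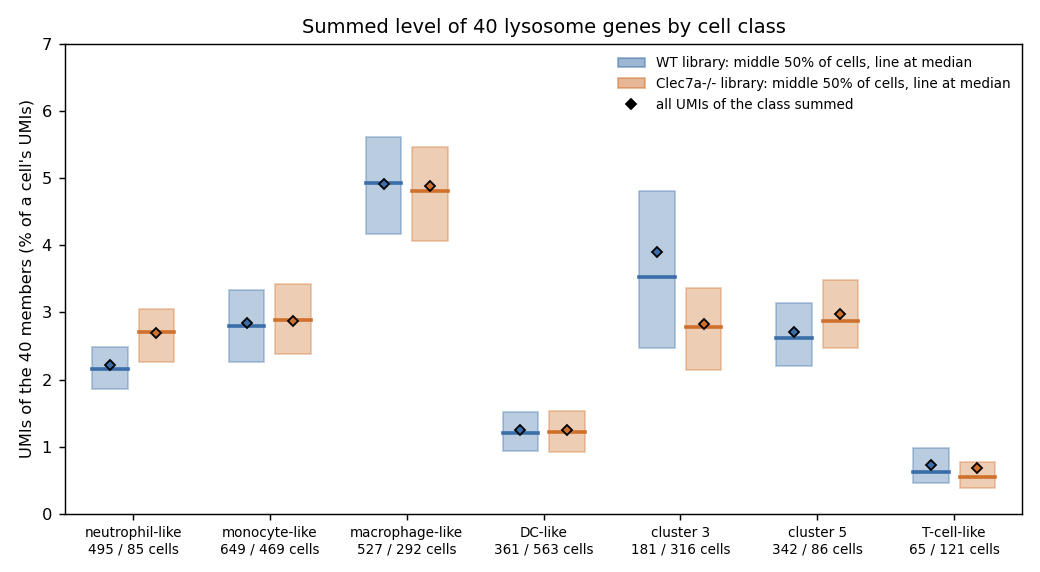
Summed level of the 40 lysosomal genes, as a percent of the UMIs of the same cells, in each class and in unnamed clusters 3 and 5, with boxes for the middle 50% of cells, lines at the per-cell median and diamonds for all UMIs of the class summed. Macrophage-like cells are highest in both libraries (4.92% and 4.89%), T-cell-like cells lowest, and cluster 3 has the widest gap between the summed values (3.89% and 2.83%).

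Of the 40 genes, 28 had their highest level of the 4 myeloid classes in macrophage-like cells in both libraries, 25 of them with intervals apart from the next class. By comparison, 21.0% of 7950 genes counted in the same way were highest there. Levels in macrophage-like cells exceeded those in DC-like cells in both libraries for 39 genes, those in monocyte-like cells for 34 and those in neutrophil-like cells for 32. Neutrophil-like cells were highest for 6 genes (Ctsd, Gla, Lamp2, Tfeb, Atp6v0c and Atp6v0d1), 5 of them with intervals apart from the next class, the exception being Lamp2, against 13.4% of all genes. Monocyte-like cells were highest for 1 gene, Ctsk (against 14.5% of all genes), and DC-like cells for 1, Ppt1 (against 27.0%). For both the interval overlapped that of the next class in the Clec7a-/- library. The highest class differed between the libraries for Hexa, Npc1, Smpd1 and Mcoln1. Unnamed clusters were left out of this ranking. Over 11 clusters, cluster 3 was highest for Tpp1, Psap, Npc1, Mcoln1, Atp6v0c, Atp6v0d1, Atp6v0d2 and Atp6v1a in the WT library. In the Clec7a-/- library it was highest for Hexa, Gla, Mcoln1, Atp6v0c and Atp6ap1.

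The 8 cysteine proteases, legumain among them, were the most abundant group of macrophage-like cells. They had 19480 CPM in the WT and 19319 CPM in the Clec7a-/- library, or 39.6% and 39.5% of the UMIs of the lysosomal genes. Ctss, the cathepsin that trims the invariant chain of MHC class II, had levels of 6716 and 6373 CPM there, 2770 and 2744 CPM in monocyte-like cells, 945 and 935 CPM in DC-like cells and 158 and 222 CPM in neutrophil-like cells. It had the widest gap between macrophage-like and neutrophil-like cells of the 40 genes in the WT library, a log2 difference of 5.40 (4.82 in the Clec7a-/- library). Ctsb, a protease with both endo- and exopeptidase activity, was less restricted, at 6511 and 6243 CPM in macrophage-like, 3704 and 3533 CPM in monocyte-like, 2968 and 3005 CPM in neutrophil-like and 543 and 497 CPM in DC-like cells. Levels of Ctsl, an endopeptidase, were 1550 and 1800 CPM in macrophage-like cells and 53.8 and 54.8 CPM in DC-like cells. Ctsc, which activates the serine proteases of granules, followed Ctss, with 1811 and 1916 CPM in macrophage-like cells against 63.4 and 146 CPM in neutrophil-like cells. Ctsk, best known as the collagen-cutting cathepsin of osteoclasts, was the scarcest of the group and stood at 67.1 and 67.2 CPM in monocyte-like cells and 45.0 and 47.5 CPM in macrophage-like cells. Lgmn, the asparagine-specific protease legumain, had 940 and 926 CPM in macrophage-like cells and 39.6 and 31.8 CPM in neutrophil-like cells.

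Among the other proteases, Ctsd did not share this order. Ctsd, the aspartic cathepsin, had its highest level in neutrophil-like cells, 1514 CPM in the WT and 2154 CPM in the Clec7a-/- library, against 629 and 497 CPM in macrophage-like, 454 and 337 CPM in monocyte-like and 41.9 and 34.2 CPM in DC-like cells. Its 2 neighbours in the group were highest in macrophage-like cells. Ctsa, a carboxypeptidase that also protects β-galactosidase and neuraminidase, had 460 and 395 CPM there, and Tpp1, a tripeptidyl peptidase, 340 and 335 CPM.

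Among the glycosidases Gla, which removes terminal α-galactose from glycolipids, had 1728 and 2351 CPM in neutrophil-like cells, 701 and 760 CPM in monocyte-like, 709 and 746 CPM in macrophage-like and 154 and 145 CPM in DC-like cells. Rpl36a lies within 3000 bases past the 3′ end of Gla, and its own level had the reverse order, with 46.2 and 31.8 CPM in neutrophil-like cells and 671 and 640 CPM in macrophage-like cells. Gusb, the β-glucuronidase, was highest in macrophage-like cells (608 and 609 CPM) and low in neutrophil-like cells (25.1 and 12.7 CPM). Man2b1, an α-mannosidase, had 496 and 430 CPM in macrophage-like and 205 and 192 CPM in DC-like cells. Gaa, the glycogen-degrading α-glucosidase, stayed at or below 29.0 CPM in all 4 classes.

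Psap, the precursor of the saposins that present sphingolipids to their hydrolases, was the most abundant lysosomal gene of macrophage-like cells, at 8241 and 8355 CPM, and of DC-like cells, at 2473 and 2538 CPM. It accounted for 16.9% of the lysosomal UMIs of macrophage-like cells and 20.2% of those of DC-like cells, both libraries together. Among the DC-like clusters it ranked first only in cluster 8 (5531 and 4589 CPM). In cluster 2 it had 885 and 1145 CPM, below Atp6v0c (2333.5 and 2564 CPM). In cluster 10 it had 1204 and 1462 CPM, below Cd63 (1977 and 1599 CPM). Npc2, the soluble carrier that takes cholesterol from the lumen, had 1153 and 1234 CPM in macrophage-like cells and 97.0 and 102 CPM in neutrophil-like cells. Its membrane partner Npc1 had 276 and 257 CPM in macrophage-like, 236 and 259 CPM in monocyte-like, 195 and 241 CPM in neutrophil-like and 51.7 and 45.9 CPM in DC-like cells. Ppt1, which removes palmitate from proteins, was the 1 gene of the 40 with a higher level in DC-like than in macrophage-like cells of both libraries. It had 220 and 183 CPM in DC-like and 153 and 164 CPM in macrophage-like cells. Of the DC-like clusters, only cluster 8 (576 and 389 CPM) lay above macrophage-like cells. Clusters 2 (28.1 and 27.6 CPM) and 10 (89.2 and 93.6 CPM) lay below them. Smpd1, the acid sphingomyelinase, was low in all 4 myeloid classes (at most 9.40 CPM) and had 34.5 and 42.1 CPM in T-cell-like cells.

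Of the membrane proteins, the tetraspanin Cd63 had 3262 and 3180 CPM in macrophage-like cells and between 923 and 1258 CPM in the other 3 classes. Lamp1 had 1563 and 1552 CPM in macrophage-like, 890 and 1226 CPM in neutrophil-like, 928 and 969 CPM in monocyte-like and 396 and 383 CPM in DC-like cells. Its paralogue Lamp2 had its highest level in neutrophil-like cells, at 568 and 464 CPM. Cd68, a glycoprotein of macrophage endosomes and lysosomes, had 1040 and 1112 CPM in macrophage-like cells and 541 and 585 CPM in neutrophil-like cells. Over 11 clusters the log2 level of Cd68 followed that of the remaining genes summed most closely of the 40 (Pearson's r 0.97 in the WT and 0.96 in the Clec7a-/- library), whereas Scarb2 (0.02 and 0.31), Ppt1 (0.03 and 0.23) and Smpd1 (0.13 and -0.01) followed it least in the WT library. The clusters share libraries and are not independent samples, so these are descriptions.

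**Figure D2:**
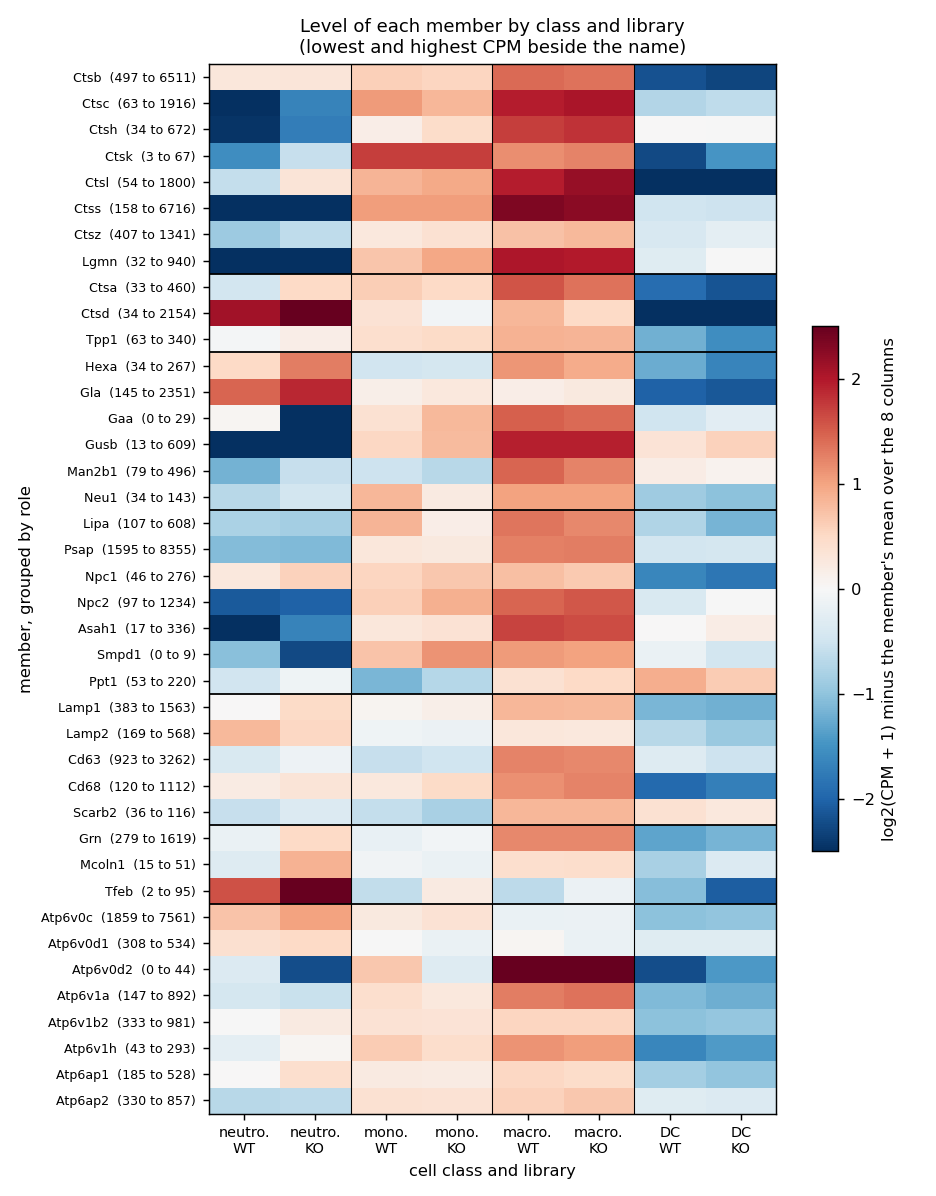
Levels of the 40 lysosomal genes, grouped by role, in the 4 myeloid classes of the WT and Clec7a-/- (KO) libraries, drawn as log2(CPM + 1) minus the gene's own mean over the 8 columns, with its lowest and highest CPM beside its name. The macrophage-like columns are highest for most genes, while Ctsd, Gla, Lamp2, Tfeb, Atp6v0c and Atp6v0d1 are highest in the neutrophil-like columns and Ppt1 in the DC-like ones.

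The subunits of the proton pump made up a larger part of the lysosomal UMIs in neutrophil-like cells (38.2% in the WT and 37.6% in the Clec7a-/- library) than in monocyte-like (26.3% and 27.0%), DC-like (26.8% and 26.8%) or macrophage-like cells (14.7% and 14.9%). Atp6v0c, which forms the proton-carrying ring in the membrane, accounted for most of this. Its level was 6221 and 7561 CPM in neutrophil-like, 4447 and 4858 CPM in monocyte-like, 3363 and 3407 CPM in macrophage-like and 1859 and 1891 CPM in DC-like cells. Atp6v1a and Atp6v1b2, which form the ATP-hydrolysing head, had the reverse order of neutrophil-like and macrophage-like cells, at 256 and 235 against 841 and 892 CPM for Atp6v1a and at 672 and 794 against 981 and 980 CPM for Atp6v1b2.

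The 2 forms of the d subunit, which couples the head to the ring, differed in where they were found. Atp6v0d1, the widespread form, varied little, from 309 and 308 CPM in DC-like to 504 and 534 CPM in neutrophil-like cells. Atp6v0d2, known from osteoclasts and macrophages, had 44.3 CPM (188 UMIs) in macrophage-like cells of the WT library and 26.3 CPM (52 UMIs) in those of the Clec7a-/- library, and at most 6.41 CPM in the other 3 myeloid classes. In DC-like cells it had 0 and 2 UMIs. T-cell-like cells had 28.8 CPM (5 UMIs) and 42.1 CPM (10 UMIs). Over 11 clusters, Atp6v0d2 was highest in unnamed cluster 3 in the WT library. In the Clec7a-/- library it was highest in T-cell-like cluster 9. Each cell was then thinned to 1000 UMIs to compare the share of cells with a UMI at equal depth. Atp6v0d2 was detected in 3.99% of macrophage-like cells in the WT library (20 of 501, exact binomial interval 2.46% to 6.10%) and 2.55% in the Clec7a-/- library (7 of 274, 1.03% to 5.19%), and in 12.9% and 7.19% without thinning. These cells had medians of 8215 and 6623 UMIs before thinning. In T-cell-like cells, with medians of 2284.5 and 1823 UMIs before thinning, 0 of 56 thinned cells had a UMI, which allows up to 5.36%, and 1.10% of 91 did. The share in macrophage-like cells was therefore not distinguishable from that in T-cell-like cells at this depth. Thinning left out 26 and 18 macrophage-like cells and 9 and 30 T-cell-like cells.

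**Figure D3:**
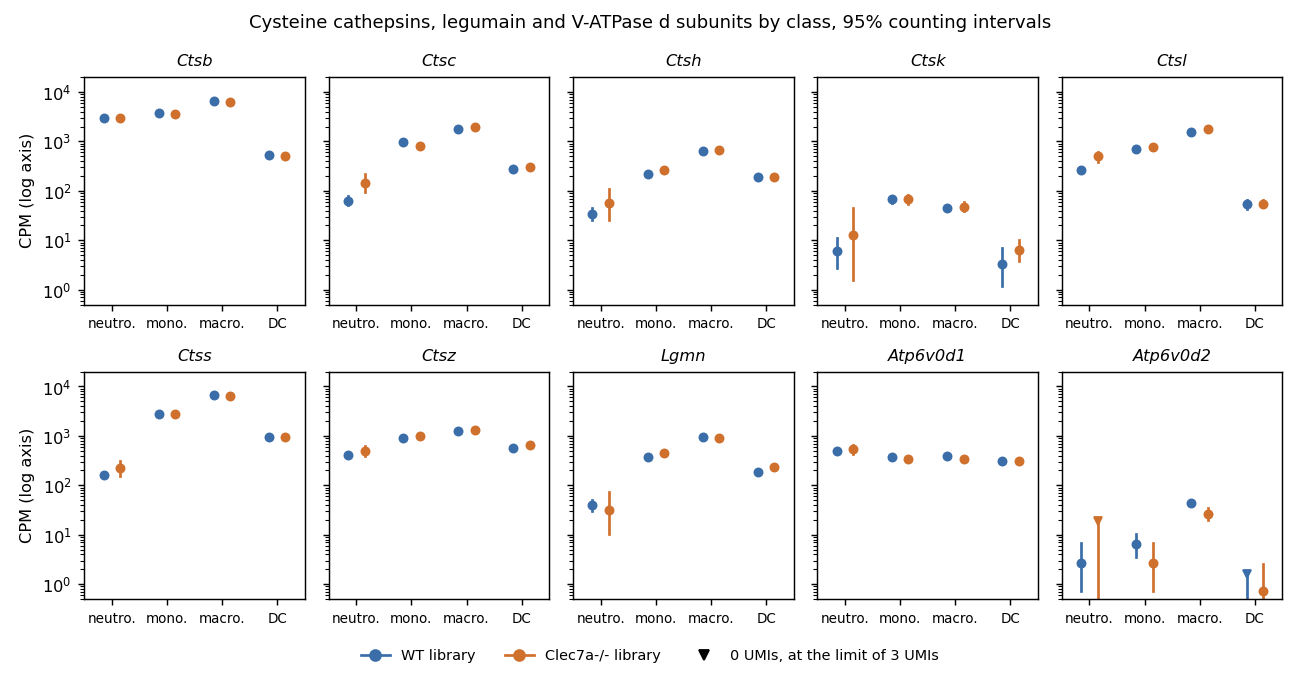
Levels in CPM, on a log axis, of the cysteine cathepsins, legumain and the 2 forms of the V-ATPase d subunit in the 4 myeloid classes of the WT and Clec7a-/- libraries, with exact 95% Poisson intervals and triangles at the limit of 3 UMIs where none was counted. Ctss and Ctsl are highest in macrophage-like cells, and Atp6v0d2 lies far below Atp6v0d1 in every class.

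Tfeb itself was scarce, with 42.9 CPM (65 UMIs) and 95.3 CPM (15 UMIs) in neutrophil-like cells and 2.49 to 16.1 CPM in the other 3 classes. After thinning it was detected in 3.85% (19 of 493, 2.34% to 5.95%) and 12.05% (10 of 83, 5.93% to 21.0%) of neutrophil-like cells, against 11.9% and 16.5% without thinning. In T-cell-like cells it was detected in 0 of 56 and in 3.30% of 91. Mcoln1, the calcium channel of the lysosomal membrane, was highest in macrophage-like cells of the WT library (37.2 CPM) and in neutrophil-like cells of the Clec7a-/- library (50.8 CPM, from 8 UMIs). Grn, the precursor of the granulins, had 1606 and 1619 CPM in macrophage-like cells and 625 and 991 CPM in neutrophil-like cells.

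Inside a class, the clusters were also compared with each other. The macrophage-like clusters were cluster 6, led by C6, Ccl8 and Pla2g2d, and cluster 7, led by Igf1, Colec12 and Rnase4. Their summed levels differed by 0.04 (log2) in the WT and 0.03 in the Clec7a-/- library, cluster 7 over cluster 6. Of 38 genes with at least 100 UMIs in the class, Ctsd and Gusb were more than 1.5-fold higher in cluster 7 in both libraries, against 5.43% of all genes, and Ctsl and Mcoln1 more than 1.5-fold lower, against 4.81%. Ctsd had 762 CPM in cluster 7 and 421 CPM in cluster 6 of the WT library (log2 difference 0.86, interval 0.73 to 0.98), and 667 and 298 CPM in the Clec7a-/- library (1.16, 0.96 to 1.37). Ctsl had 1183 and 2124 CPM in the WT library (-0.84, -0.91 to -0.77), and 1268 and 2422 CPM in the Clec7a-/- library (-0.93, -1.03 to -0.83). Their neighbour Ctsb had near-equal levels in both clusters, 6554 and 6444 CPM in the WT library.

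Of the monocyte-like clusters, cluster 0 carried all 7 monocyte markers and cluster 4 all 4 markers of the transition from monocyte to macrophage. Their summed levels, cluster 4 over cluster 0, differed by -0.02 (log2) in the WT and -0.25 in the Clec7a-/- library. Of 35 genes, 7 were more than 1.5-fold higher in cluster 4 in both libraries (Scarb2, Ctsh, Lipa, Cd63, Asah1, Man2b1 and Neu1), against 10.7% of all genes, and Ctsd was lower, against 6.92%. Lipa, the acid lipase that frees cholesterol and fatty acids from lipoprotein esters, had 584 CPM in cluster 4 and 286 CPM in cluster 0 of the WT library (1.03, 0.84 to 1.22), and 368 and 149 CPM in the Clec7a-/- library (1.29, 0.97 to 1.64). Cd63 had 1220 and 615 CPM in the WT library (0.99, 0.86 to 1.12). Ctsd had 344 and 567 CPM in the WT library (-0.72, -0.91 to -0.54).

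The largest contrasts were among DC-like clusters. Cluster 8 carried all 5 markers of type 1 DCs, and cluster 2 all 6 of mature and 3 of 4 of type 2 DCs. Cluster 8 also carried 4 of 5 proliferation markers, whose part was not tested. Median UMIs per cell were 6722 and 5803.5 in cluster 8, and 3209.5 and 2939 in cluster 2. Their summed levels differed by 0.08 (log2) in the WT and -0.11 in the Clec7a-/- library, cluster 8 over cluster 2, yet 21 of 34 genes were past 1.5-fold in both libraries, 7 higher in cluster 8 (against 8.81% of all genes) and 14 lower (against 16.3%). Ppt1 had 576 CPM in cluster 8 and 28.1 CPM in cluster 2 of the WT library (4.33, 3.76 to 5.02), and 389 and 27.6 CPM in the Clec7a-/- library (3.79, 3.27 to 4.43). Cap1, which overlaps Ppt1 on the other strand, differed in the same direction but far less. It had 452 and 378 CPM in the WT library and 395 and 266 CPM in the Clec7a-/- library. Psap had 5531 and 885 CPM in the WT library (2.64, 2.53 to 2.76), and 4589 and 1145 CPM in the Clec7a-/- library (2.003, 1.91 to 2.097). Man2b1, Grn, Gusb, Hexa and Asah1 were the others that were higher in cluster 8. Cd63 went furthest the other way, with 56.5 and 1466 CPM in the WT library (-4.68, -5.24 to -4.21), and 85.9 and 1422 CPM in the Clec7a-/- library (-4.04, -4.37 to -3.74). Gla was 41.5 and 249 CPM in the WT library (-2.56, -3.24 to -1.98), Lamp1 136 and 544 CPM (-1.99, -2.35 to -1.66) and Lgmn 54.8 and 220 CPM (-1.99, -2.58 to -1.46). Ctsb, Ctsl, Ctsz, Ctsa, Ctsd, Tpp1, Neu1, Lipa, Npc1 and Atp6v0c were also lower in cluster 8.

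Cluster 10, which like cluster 2 carried all 6 markers of mature DCs, and with them 2 of 5 of type 1 DCs (Xcr1 and Clec9a), differed from cluster 2 in 15 of 33 genes. Ppt1 alone was higher (89.2 against 28.1 CPM in the WT library, 1.66, 0.87 to 2.49), against 10.3% of all genes, and 14 were lower, against 12.8%. Among these were Ctss, with 650 and 1139 CPM in the WT library (-0.81, -1.01 to -0.61) and with 519 and 1294 CPM in the Clec7a-/- library (-1.32, -1.49 to -1.15), and Lipa, with 68.2 and 200 CPM in the WT library (-1.53, -2.21 to -0.95). The summed level in cluster 10 was -0.22 and -0.38 (log2) from that of cluster 2.

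**Figure D4:**
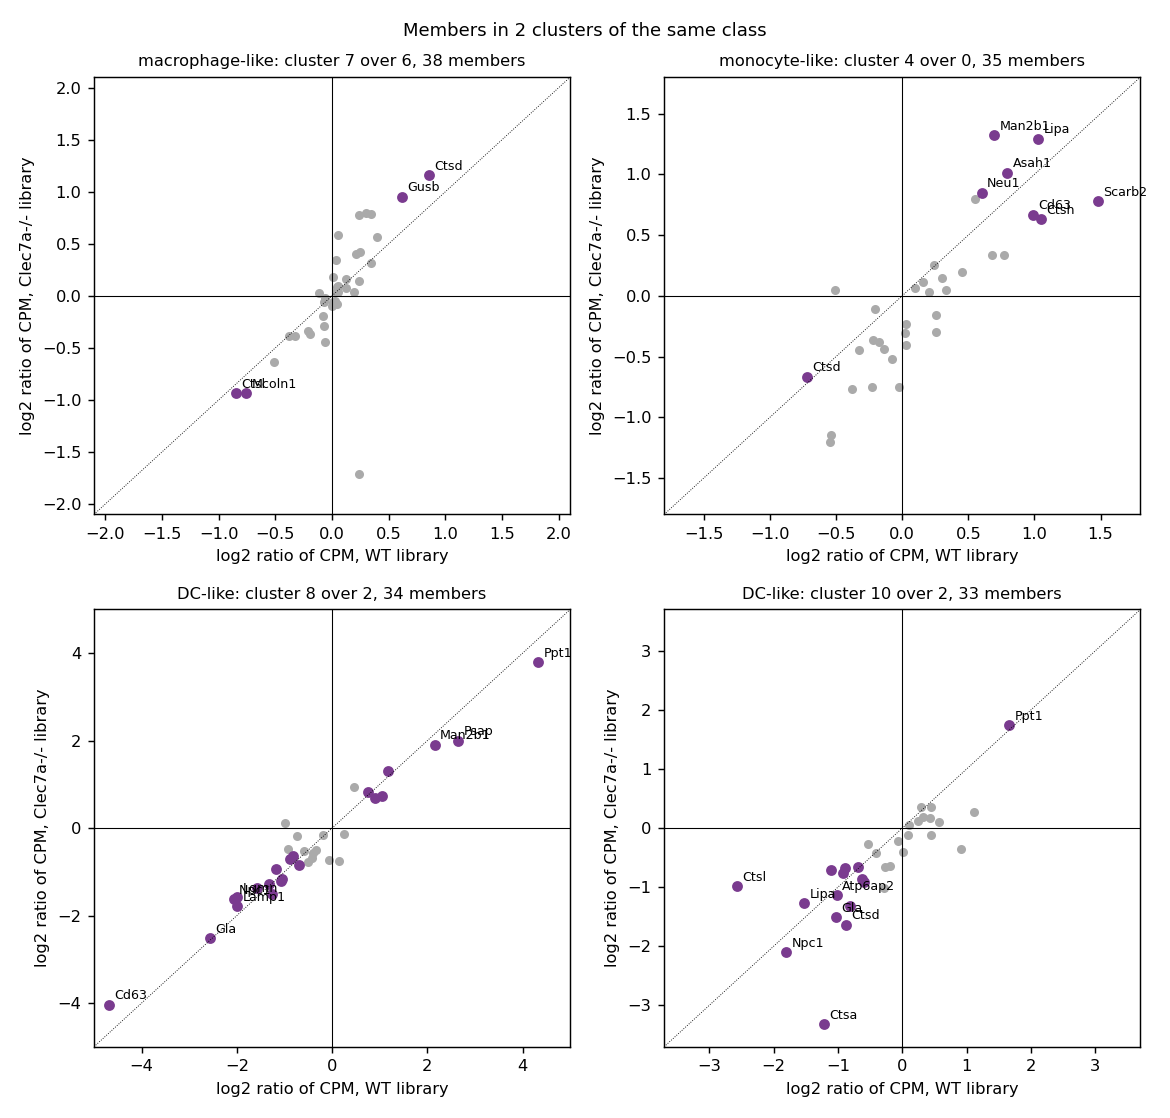
Log2 difference of each lysosomal gene between clusters of one class, WT library on the x axis and Clec7a-/- library on the y axis, with purple points for genes past 1.5-fold in both libraries and a dotted line where the libraries are equal. The differences between DC-like clusters 8 and 2 span the widest range, from Cd63 (-4.68 and -4.04) to Ppt1 (4.33 and 3.79), and 4 of 38 genes of the macrophage-like pair are purple.

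Between the libraries, the 40 genes taken over all cells stood at 3.21% of UMIs in the WT and 2.72% in the Clec7a-/- library, a log2 difference of -0.24 (interval -0.25 to -0.23). The 2 libraries differed in the shares of the classes. Neutrophil-like cells were 18.4% of WT and 4.25% of Clec7a-/- cells, cluster 5 was 12.7% and 4.30%, cluster 3 was 6.71% and 15.8%, and DC-like cells were 13.4% and 28.2%, while monocyte-like cells were 24.1% and 23.5%. These shares can also be set by the sort on CD11b and CD11c, and they depend on the filter for mitochondrial UMIs. With 10% allowed, DC-like cells numbered 520 and 961 in place of 361 and 563. Neutrophil-like cells then numbered 482 and 61 in place of 495 and 85. Weighting the 4 named myeloid classes to the same shares of cells in both libraries gave 2.80% and 2.89%, a log2 difference of 0.04. Pooling all UMIs of these classes in each library gave 3.34% and 2.78% (-0.27). The pooled values weight classes by UMIs rather than by cells. The gap between the 0.04 and the -0.27 therefore does not measure class shares alone. Over all cells, 2 of the 40 genes were more than 1.5-fold lower in the Clec7a-/- library (against 5.70% of all genes) and none was higher (against 10.2%). These were Atp6v0d2 (19.8 and 10.3 CPM, -0.93, -1.33 to -0.57) and Ctsd (639 and 406 CPM, -0.65, -0.72 to -0.59). The median of the 40 differences was -0.23, and that of all genes 0.13. TMM scaling, which applies a common factor to all genes, moved the differences over all cells down by 0.17.

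**Figure D5:**
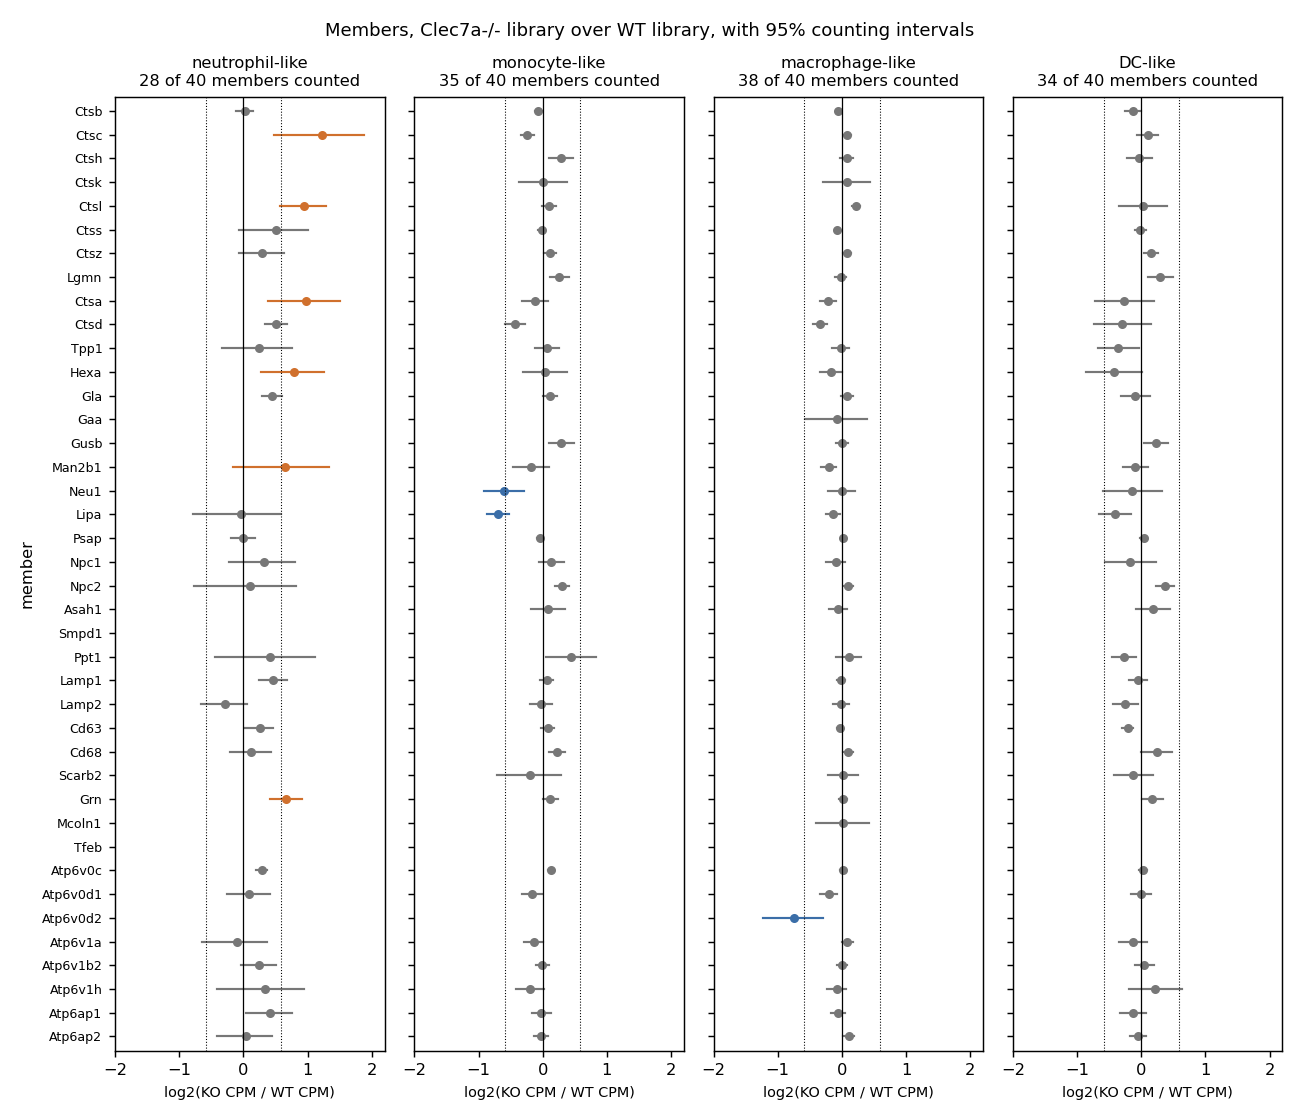
Log2 difference between the Clec7a-/- and WT libraries for each lysosomal gene with at least 100 UMIs in each of the 4 classes, with 95% counting intervals, dotted lines at 1.5-fold, and orange or blue for genes past it. Most genes of monocyte-like, macrophage-like and DC-like cells lie close to 0, and those of neutrophil-like cells lie mostly above it (24 of 28).

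Inside the macrophage-like class the libraries lay close together. The summed level differed by -0.01 (log2, interval -0.02 to 0.00), and so did the cysteine proteases, with legumain, as a group (-0.01, -0.03 to 0.01). The 3 other proteases had 1429 CPM in the WT and 1227 CPM in the Clec7a-/- library (-0.22, -0.29 to -0.15). Of 38 genes with at least 100 UMIs, 1 was more than 1.5-fold lower in the Clec7a-/- library, Atp6v0d2 (-0.74, -1.22 to -0.30), against 3.15% of all genes, and none was higher, against 2.04%. Ctsd was lower by less than that (-0.34, -0.45 to -0.23) and Ctsl was higher (0.22, 0.16 to 0.28). The median of the 38 was -0.01, as was that of all genes. Macrophage markers summed to 14903 CPM in the WT and 20905 CPM in the Clec7a-/- library, with all 10 detected in both, and neutrophil markers to 1537 and 855 CPM, with Ngp at 0 in the Clec7a-/- library. Their part in these values was not tested.

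In monocyte-like cells the summed level differed by 0.01 (log2, -0.00 to 0.03), with 0.13 (0.11 to 0.16) in cluster 0 and -0.09 (-0.11 to -0.07) in cluster 4. Of 35 genes, 2 were more than 1.5-fold lower in the Clec7a-/- library (against 3.31% of all genes) and none was higher (against 2.83%). Lipa had 438 and 271 CPM (-0.69, -0.86 to -0.53), and Neu1, the sialidase, 127 and 83.3 CPM (-0.60, -0.92 to -0.30). Neu1 was no longer past the threshold with a pseudocount of 5 UMIs or with 10% mitochondrial UMIs allowed. Lipa was lower in the Clec7a-/- library in both clusters of the class (-0.93, -1.28 to -0.61 in cluster 0 and -0.67, -0.87 to -0.47 in cluster 4), as well as in unnamed cluster 5 (-1.20, -1.76 to -0.72). Its differences in DC-like cells (-0.41, -0.65 to -0.16) and macrophage-like cells (-0.14, -0.24 to -0.04) were smaller than 1.5-fold, and in neutrophil-like cells the 21 UMIs of the Clec7a-/- library could not show one (-0.04, -0.79 to 0.58). The median of the 35 genes was 0.00 and that of all genes 0.03. Neutrophil markers summed to 2380 and 1869 CPM in monocyte-like cells and macrophage markers to 1582 and 1983 CPM. Markers of the transition from monocyte to macrophage summed to 2926 and 2333 CPM (-0.33, -0.39 to -0.27). Mature DC markers summed to 305 and 454 CPM (0.57, 0.42 to 0.73), with Il12b at 0 in the WT library. The part of all these markers was not tested.

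In DC-like cells no gene of 34 was past 1.5-fold in either direction (against 3.32% of all genes higher and 3.07% lower in the Clec7a-/- library). The summed level differed by -0.00 (log2, -0.02 to 0.02), and the median of the 34 was -0.05, against 0.02 over all genes. The clusters of the class differed in direction, with 0.12 (0.08 to 0.16) in cluster 2, -0.08 (-0.12 to -0.04) in cluster 8 and -0.05 (-0.10 to 0.01) in cluster 10. Ctsc had 191 and 351 CPM in cluster 8, against 378 and 323 CPM in cluster 2 and 199 and 190 CPM in cluster 10. Over the class, Npc2 was higher (323 and 418 CPM, 0.37, 0.23 to 0.52) and Ppt1 lower (220 and 183 CPM, -0.27, -0.46 to -0.08) beyond counting error. The clusters did not share these differences evenly. Npc2 had 291 and 506 CPM in cluster 2 and 396 and 467 CPM in cluster 10, but 322 and 303 CPM in cluster 8. Ppt1 had 576 and 389 CPM in cluster 8, 28.1 and 27.6 CPM in cluster 2, and 89.2 and 93.6 CPM in cluster 10. When each cell was instead assigned by its marker scores, without clusters, the class took in 528 WT and 722 Clec7a-/- cells in place of 361 and 563, and its summed level differed by -0.36. Neutrophil markers summed to 1945 and 1198 CPM in DC-like cells (10 of 10 detected in both libraries), markers of the transition from monocyte to macrophage to 245 and 147 CPM (4 of 4), proliferation markers to 192 and 272 CPM (5 of 5), and macrophage markers to 126 and 169 CPM (9 of 10, Mertk at 0 in both). Their part in these values was not tested.

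Neutrophil-like cells were compared on 495 WT and 85 Clec7a-/- cells, the fewest Clec7a-/- cells of the 4 classes. Their medians were 2803 UMIs per cell in the WT and 1777 in the Clec7a-/- library, and the part of this depth gap was not tested. The summed level was 2.22% and 2.69% of UMIs (0.28, 0.23 to 0.32), and the median per cell was 2.16% in the WT library (quartiles 1.86% and 2.49%) and 2.70% in the Clec7a-/- library (2.26% and 3.05%). Of 28 genes with at least 100 UMIs, 6 were more than 1.5-fold higher in the Clec7a-/- library, against 11.4% of all genes, and none was lower, against 11.4%. The median of the 28 was 0.31 and that of all genes 0.00. The 6 were Ctsc (63.4 and 146 CPM, 1.23, 0.48 to 1.87), Ctsa (111 and 216 CPM, 0.98, 0.39 to 1.501), Ctsl (259 and 496 CPM, 0.94, 0.56 to 1.29), Hexa (156 and 267 CPM, 0.79, 0.27 to 1.26), Grn (625 and 991 CPM, 0.67, 0.41 to 0.91) and Man2b1 (78.5 and 121 CPM, 0.65), whose interval included 0. The Clec7a-/- values rest on 19 to 156 UMIs each. With TMM scaling Hexa (0.56), Grn (0.43) and Man2b1 (0.42) were no longer past 1.5-fold.

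Ctsb, the second most abundant gene of the class, had 2968 and 3005 CPM, and Psap 1603 and 1595 CPM. The gap was therefore uneven between genes. As groups, the glycosidases differed by 0.46 (0.31 to 0.60) and the lipid genes by 0.05 (-0.11 to 0.21), with intervals apart. The V-ATPase differed by 0.25 (0.18 to 0.33), with an interval that overlapped both. The regulators or channels differed by 0.72 (0.48 to 0.95) and the other proteases by 0.52 (0.36 to 0.67). Membrane proteins differed by 0.21 (0.08 to 0.34) and cysteine proteases, with legumain, by 0.18 (0.07 to 0.30). TMM scaling moved the differences of all genes of the class, whose median was 0.00 before it, down by 0.24. The summed level was 0.041 after this common shift. With cells assigned by marker scores (809 WT and 416 Clec7a-/- cells) it was 0.14. Macrophage markers had 222 and 292 CPM in the class (9 and 7 of 10 detected, Mertk at 0 in both and Mrc1 and Pf4 also at 0 in the Clec7a-/- library), mature DC markers 33.0 and 127 CPM (6 and 5 of 6 detected), monocyte markers 356 and 267 CPM (F13a1 and Vcan at 0 in both) and neutrophil markers 48690 and 43986 CPM. Interferon-induced genes had 179.5 and 337 CPM (0.91, 0.45 to 1.34, Ifit2 at 0 in both), proliferation markers 62.7 and 133 CPM (1.09, 0.33 to 1.78), type 1 DC markers 27.1 and 63.5 CPM (1.23, 0.07 to 2.25) and T cell markers 10.6 and 63.5 CPM (2.59, 1.29 to 3.82, Cd3e at 0 in both and Cd3d and Cd3g also at 0 in the Clec7a-/- library). Their part in the difference was not tested.

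Ctsd had opposite directions in different cells. It was lower in the Clec7a-/- library in monocyte-like cells (-0.43, -0.58 to -0.27) and macrophage-like cells (-0.34), and higher in neutrophil-like cells (0.51, 0.34 to 0.67) and in unnamed clusters 5 (794 and 1256 CPM, 0.66, 0.48 to 0.84) and 3 (1307 and 2116 CPM, 0.69, 0.50 to 0.89). In DC-like cells it was also lower, by less than 1.5-fold. TMM scaling moved every difference of neutrophil-like cells down by 0.24 and was not computed for clusters 3 and 5. Neutrophil markers were also lower in the monocyte-like and macrophage-like cells of the Clec7a-/- library, and their part was not tested.

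Cluster 3 had a higher summed level in the WT library (3.89%, 3.81% to 3.97%) than in the Clec7a-/- library (2.83%, 2.78% to 2.89%), a difference of -0.46 (-0.50 to -0.42). The median per cell was 3.53% and 2.78%. This cluster was described gene by gene after its summed level had been seen. Of 25 genes, 6 were more than 1.5-fold lower in the Clec7a-/- library, against 24.8% of all genes, and 4 were higher, against 23.3%, so that the counts stood close to those of all genes. The median of the 25 was -0.14 and that of all genes -0.02, both nearer to 0 than the summed difference. The lower ones were Lipa (579 and 154 CPM, -1.90, -2.41 to -1.43), Psap (8692 and 2443 CPM, -1.83, -1.95 to -1.71), Atp6v1a (939 and 337 CPM, -1.47, -1.83 to -1.14), Npc2 (291 and 132 CPM, -1.13, -1.73 to -0.56), Cd63 (3060 and 1455 CPM, -1.07, -1.24 to -0.90) and Ctsb (5212 and 2897 CPM, -0.85, -0.97 to -0.72). The higher ones were Gla (1406 and 2648 CPM, 0.91, 0.73 to 1.10), Atp6v1h (0.74), Ctsd (0.69) and Lamp2 (0.60). Neutrophil markers had 14456 CPM in the WT and 24041 CPM in the Clec7a-/- library, monocyte markers 274 and 145 CPM, and macrophage markers 360 and 340 CPM. Eosinophil markers had 159 and 31.5 CPM there (-2.33, -3.51 to -1.30), with Epx at 0 in both libraries and Prg2 also at 0 in the Clec7a-/- library. Interferon-induced genes had 51.4 and 274 CPM (2.41, 1.54 to 3.42), T cell markers 55.7 and 15.7 CPM (-1.82, -3.66 to -0.24) and B or plasma cell markers 60.001 and 18.9 CPM (-1.67, -3.33 to -0.20). Their part in the difference was not tested.

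The other genes of the pathway were a wider list of 74 lysosomal genes, 73 of them in the files. CACGTG stood in a promoter window of 16 of the 55 genes that had one (29.1%), against 8.09% of all genes with a window. In monocyte-like cells none of 45 with at least 100 UMIs was past 1.5-fold between the libraries (against 2.83% of all genes higher and 3.31% lower), and in macrophage-like cells 2 of 58 were higher in the Clec7a-/- library (against 2.04%), Laptm4b (14.8 and 28.3 CPM, 0.93, 0.39 to 1.47) and the cathepsin Ctsf (33.7 and 55.6 CPM, 0.72, 0.35 to 1.09). In DC-like cells 1 of 46 was higher (against 3.32%), Laptm4b, a membrane protein of lysosomes and endosomes (412 and 710 CPM, 0.78, 0.66 to 0.91). Laptm4b was among the leading genes of DC-like cluster 10, which held 55 of 361 WT and 118 of 563 Clec7a-/- DC-like cells. Any part of these cell shares in its differences, in DC-like cells or over all cells, was not tested. In neutrophil-like cells 7 of 26 were higher (against 11.4%), among them Dpp7 and Cln3, and 2 were lower (against 11.4%), the V-ATPase subunits Atp6v1e1 and Atp6v1c1. Cln3, a membrane protein whose loss causes a neuronal storage disease, had 1264 and 2402 CPM (0.93, 0.76 to 1.09). The medians of these genes were 0.02 in monocyte-like, -0.00 in macrophage-like, 0.02 in DC-like and 0.26 in neutrophil-like cells. Over all cells 3 of 65 were higher (Laptm4b, Sort1 and Arsb), against 10.2% of all genes, and 2 lower (Atp6v1e1 and Atp6v1c1), against 5.70%. Atp6v1e1 had 504 CPM in the WT and 296 CPM in the Clec7a-/- library (-0.77, -0.84 to -0.70), and was lower in neutrophil-like (-1.12, -1.59 to -0.71), monocyte-like (-0.47, -0.60 to -0.35) and macrophage-like cells (-0.34, -0.47 to -0.22). The gene lies on chromosome 6 (GRCm38, chr6:120794305-120822793), which also carries Clec7a, and any part of linked sequence in this difference was not tested.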

How the data were processed

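For each library the authors deposited raw UMI counts, whole numbers by gene and barcode with no scaling. The protocol names the SeekOne MM 3′ kit and the description label another platform. The submitters' processing notes list Cell Ranger 2.1.1 and mm10. Whether counting used strand is not given in the sources used here, and 11 of the 40 members overlap a gene on the other strand (Ctsb, Ctsl, Ctsz, Ctsa, Hexa, Npc1, Ppt1, Lamp1, Grn, Atp6v1b2 and Atp6v1h), so their counts are uncertain. Gene positions come from GENCODE M21 (GRCm38), which holds 32158 of the identifiers. Before filtering, 3467 WT barcodes carried 15869215 UMIs and 3080 Clec7a-/- barcodes 11808230.

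Cells were kept with 200 to 4000 genes detected and 5% or less of UMIs from mitochondria, as in the study's methods. No doublets were removed. Clustering used Seurat 5.3.0 (R 4.3.3) with 2000 variable features, 20 principal components and a resolution of 0.7, and left the members and the wider list out of the features. UMIs were summed per class and library, and log2 differences (Clec7a-/- over WT) were taken with 0.5 UMI added. Genes with 100 UMIs or more, both libraries together, were counted. Genes named are the 5 highest members of each class, up to 5 past 1.5-fold in each direction, the cysteine cathepsins and the d subunits, with up to 3 of the wider list in each direction, of which 1 gene is not reported here. Members named beyond these, among them Man2b1 in neutrophil-like cells, were chosen after their values were seen. Tables were made with Python 3.11.15, numpy 2.4.6, scipy 1.17.1, pandas 2.3.3 and, for doublet scores, scanpy 1.11.5, and TMM factors with edgeR 4.0.16. The level and ratio functions were tested on simulated data. The members, lists and settings were chosen with earlier results of these data known. Thinning used random seed 1.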

Additional observations from a re-analysis of the deposited data

Results flagged for a closer look

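The summed level of the 40 genes had opposite directions between the libraries in cells that carried neutrophil markers. The log2 difference, Clec7a-/- over WT, was 0.28 in neutrophil-like cells (0.23 to 0.32) and 0.13 in cluster 5 (0.10 to 0.17), and -0.46 in cluster 3 (-0.50 to -0.42). With TMM scaling, which moves all genes of a class together, the neutrophil-like value was 0.041, and TMM was not computed for clusters 3 and 5. Cluster 3 had medians of 1130 and 910 UMIs per cell. Its neutrophil markers summed to 14456 CPM in the WT and 24041 CPM in the Clec7a-/- library. Each value compares 1 library with 1 library, so the difference between these effects was not tested. Groups of 1 library are too small to look for outlying samples.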

How the results depend on the processing

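No paired analysis was possible because each genotype had 1 library, and for the same reason no library was left out. The summed differences of monocyte-like, macrophage-like and DC-like cells and that at equal class shares lay on the other side of 0 under some settings, for macrophage-like cells with 30 components (0.00060) and for DC-like cells with 500 to 6000 genes (0.011) and averaged per cell (0.021). Values are log2 unless they are counts.

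With TMM scaling the summed difference between libraries was -0.41 over all cells, 0.041 for neutrophil-like, -0.059 for monocyte-like and -0.035 for DC-like cells. With 10% mitochondrial UMIs allowed it was -0.31 over all cells and -0.024 for macrophage-like cells. With 500 to 6000 genes per cell it was -0.22 over all cells and -0.063 for monocyte-like cells. Without the 5% of cells with the highest doublet scores it was -0.23 over all cells. Averaged per cell it was -0.19 over all cells and -0.046 for macrophage-like cells. Without the 3 most abundant genes it was -0.22 over all cells and 0.37 for neutrophil-like cells. With cells assigned by marker scores it was 0.14 for neutrophil-like, -0.020 for monocyte-like, -0.057 for macrophage-like and -0.36 for DC-like cells. With cluster 3 counted as neutrophil-like, chosen after seeing the data, it was 0.19. Without shared barcodes, also chosen after seeing the data, it was -0.24 over all cells. At equal class shares it was 0.025 with 10% mitochondrial UMIs, 0.0086 with 500 to 6000 genes and -0.043 with marker scores.

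For macrophage-like over neutrophil-like cells in the WT library, the values were 1.18 (10% mitochondrial), 1.199 (500 to 6000 genes), 1.17 (doublets), 1.03 (marker scores), 1.198 (30 components), 1.01 (cluster 3 included), 1.17 (per cell) and 1.45 (without 3 genes), and in the Clec7a-/- library 0.93 (500 to 6000 genes), 0.96 (30 components), 0.81 (cluster 3 included) and 1.07 (without 3 genes). Over monocyte-like cells they were 0.75, 0.64, 0.77, 0.69 and 0.94 in the WT library with 10% mitochondrial, 500 to 6000 genes, marker scores, 30 components and without 3 genes, and in the same order 0.72, 0.70, 0.74, 0.68 and 0.92 in the Clec7a-/- library, with 0.71 per cell. Over DC-like cells they were 2.02, 2.03, 1.55, 2.01 and 2.03 in the WT library with 500 to 6000 genes, doublets, marker scores, 30 components and without 3 genes, and in the same order 2.002, 2.03, 1.85, 2.02 and 2.04 in the Clec7a-/- library, with 1.91 per cell.

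The count of genes past 1.5-fold over all cells (2) was 0 at 2-fold, 5 with TMM and 4 with 10% mitochondrial UMIs. In neutrophil-like cells (6) it was 11 with a minimum of 20 UMIs, 1 at 2-fold and 3 with TMM, where Hexa (0.56), Grn (0.43) and Man2b1 (0.42) dropped below. In monocyte-like cells (2) it was 1 with a pseudocount of 5, 0 at 2-fold and 1 with 10% mitochondrial UMIs. In macrophage-like cells (1) it was 0 at 2-fold. In DC-like cells (0) it was 1 with a minimum of 20 UMIs and 1 without doublets. The cause of these shifts was not tested, apart from TMM, which moves all genes of a class together. Depth limits the neutrophil-like class most, since 12 of its 40 genes had under 100 UMIs.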
